A study of Mus musculus with 6 samples.

Results

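Ndufa4l2 (ENSMUSG00000040280) encodes a small mitochondrial protein that resembles Ndufa4, a subunit of cytochrome c oxidase. It is described here in mouse ovarian cancer tumorspheres, as 1 gene of the 7320 in the deposited table, which holds only genes that had passed a differential expression test between the lines. The gene was chosen by its symbol, and it was selected on its own readout in these libraries, namely its counts and FPKM (fragments of a gene scaled to its length and to the library's total) and its rank by mean FPKM in KMF. Its levels are therefore a description and carry no test.

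RNA was collected from ID8 and KMF cells grown for 5 days as tumorspheres, which are floating cell clusters, in serum-free PromoCell medium, with no further treatment. ID8 is a clonal line of transformed ovarian epithelial cells of the C57Bl6 mouse strain, and its replicates 1, 2 and 3 were taken at passages 23, 24 and 35. KMF, labelled ID8-IP, descends from ID8 cells that had been passaged in the peritoneal cavity of mice, and its replicates 1, 2 and 3 were taken at passages 14, 17 and 22. Each line is a single line, so a difference between ID8 and KMF cannot be told apart from a difference between any 2 lines, and every KMF library was at a lower labelled passage than every ID8 library. The replicates were separate RNA samples of 1 line, so their spread, which the p-values rest on, is that between cultures at different passages.

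When oxygen is short, the prolyl hydroxylases no longer mark the alpha subunits of hypoxia-inducible factors (HIF) for destruction by the VHL complex, and HIF then turns on genes of glycolysis, mitochondrial remodelling and blood vessel growth. NDUFA4L2 is known as a HIF-1 target that lowers mitochondrial oxygen use, and in healthy tissue its transcript is known as a marker of pericytes. NDUFA4, its closest relative, was first assigned to complex I and is now placed in complex IV of the respiratory chain.

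The table places Ndufa4l2 at chr10:127514939-127517152 on the plus strand of GRCm38, with a gene length of 960 bases. In GENCODE M21, its transcript has 4 exons and 934 bases, and all 4 exons carry coding sequence. The last exon (chr10:127516443-127517154) holds 712 of those bases, most of them 3′ UTR. Ndufa4 lies at chr6:11900373-11907446 on the minus strand, with a gene length of 492 bases. The coding sequences of both genes from the GENCODE M21 transcripts are printed because reads can be split between similar copies. Capitals mark the codons that encode the same residue in both genes, and all other bases are in lower case.
Ndufa4l2: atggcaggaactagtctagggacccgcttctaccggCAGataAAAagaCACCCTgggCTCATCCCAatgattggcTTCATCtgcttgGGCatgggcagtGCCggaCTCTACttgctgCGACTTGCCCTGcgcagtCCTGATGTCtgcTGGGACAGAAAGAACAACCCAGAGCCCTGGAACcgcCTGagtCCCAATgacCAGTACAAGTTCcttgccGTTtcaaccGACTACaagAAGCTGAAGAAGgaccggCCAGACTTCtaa
Ndufa4: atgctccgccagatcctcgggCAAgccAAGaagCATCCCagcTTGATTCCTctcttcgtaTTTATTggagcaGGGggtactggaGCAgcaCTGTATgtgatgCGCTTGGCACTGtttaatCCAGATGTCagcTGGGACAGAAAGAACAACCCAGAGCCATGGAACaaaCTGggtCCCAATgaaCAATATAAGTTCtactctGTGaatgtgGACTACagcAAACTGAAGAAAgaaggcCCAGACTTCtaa
Ndufa4l2 has 87 codons before its stop and Ndufa4 has 82. Over the 82 aligned codons, 48 (58.5%) encode the same residue, and 153 of 246 bases (62.2%) are identical. The longest exact run that the transcripts share is 28 bases, and it runs through the long block of capitals in the middle of both sequences.

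Ndufa4l2 was all but undetected in ID8 and abundant in KMF. Its count was 0, 0 and 1 in ID8 replicates 1, 2 and 3, where libraries totalled 29483419, 24140447 and 25662850 fragments. It was 2197, 3750 and 3613 in KMF replicates 1, 2 and 3, with totals of 23583115, 23108407 and 33212313. Every KMF library was above every ID8 library, and the lines were separated by a wide gap. In FPKM, the KMF replicates stood at 97.0, 169 and 113, with a mean of 126 ± 37.8 (SD, n = 3). The ID8 replicates stood at 0, 0 and 0.0406. A count of 0 (a limit of 3 counts) allows up to 0.106 FPKM in ID8 replicate 1 and 0.129 in replicate 2.

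Over the summed libraries, 9560 fragments in KMF stood against 1 in ID8, which is a ratio of 9486 after scaling to library totals, with an exact 95% interval of 1702 to 374722. That interval covers counting error only, and its width comes from the single ID8 fragment. Without ID8 replicate 1 the ratio was 5959, with the same single fragment over fewer ID8 libraries. Without ID8 replicate 3, the library with that fragment, no fragment was left in ID8, and Ndufa4l2 was at least 2139-fold higher in KMF, taking the floor of 3 counts over both remaining libraries. These are bulk libraries, in which fewer cells expressing the gene and less RNA per cell cannot be told apart.

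By mean FPKM in KMF, Ndufa4l2 ranked 296 of 7320 listed genes, and 96.0% of the listed genes stood at or below it. The median listed gene had 8.50 FPKM in KMF. In the KMF replicates 1, 2 and 3 taken alone, the rank was 397, 207 and 343. In the ID8 replicates it was 7242, 7229 and 7076. The rank depends on the scaling by gene length, since by mean CPM (fragments scaled to the library total but not to gene length) it was 1161. Directly above it stood Swi5, a homologous recombination factor, at 127 ± 4.78 FPKM and Ostc, a subunit of the oligosaccharyltransferase, at 127 ± 13.1 (SD, n = 3). Directly below stood Ctbp1, a transcriptional corepressor, at 126 ± 4.31 and Arf4, a GTPase of vesicle traffic, at 126 ± 5.58. These genes were picked by their rank, so their nearness to Ndufa4l2 in KMF is a description. All 4 were present in ID8, with means from 65.8 FPKM for Ostc to 108 for Swi5.

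**Figure D1:**
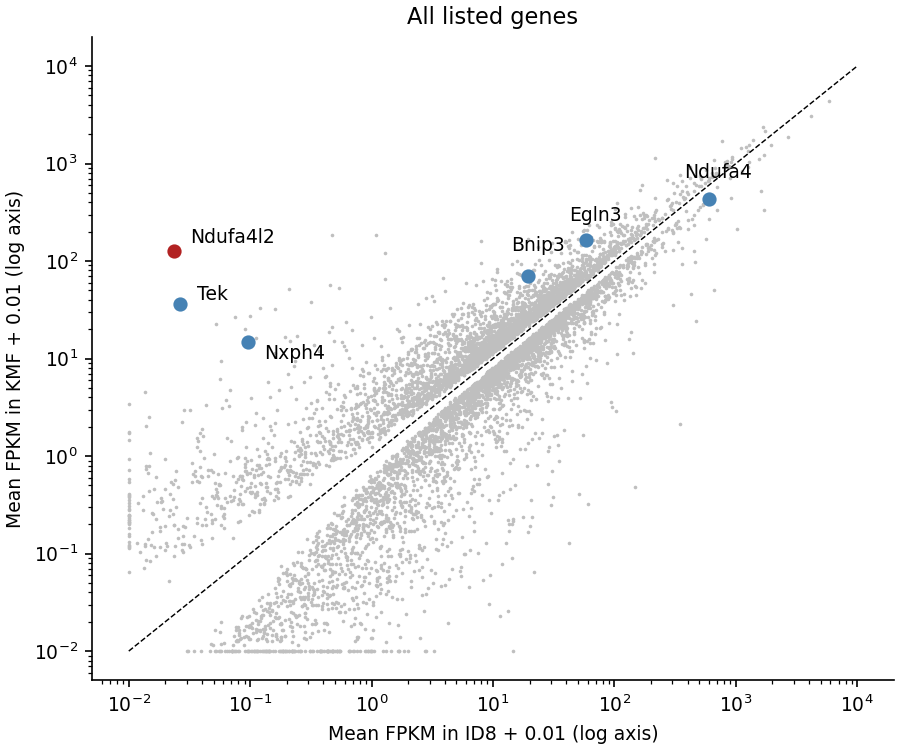
Mean FPKM in KMF against mean FPKM in ID8 for the 7320 listed genes, with 0.01 added and both axes on a log scale. Grey points are genes, the dashed line marks equal levels and 6 genes are named. Ndufa4l2 sits at the upper left edge with a KMF mean of 126, while its relative Ndufa4 sits close to the line.

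Among listed genes with at most 3 fragments in every ID8 library, Ndufa4l2 had the highest KMF level. There were 132 such genes, of which 22 exceeded 1 FPKM in KMF and 5 exceeded 10 FPKM. After Ndufa4l2 at 126 ± 37.8 FPKM came Tek, the angiopoietin receptor, at 35.9 ± 10.4, Ly6c1, a surface antigen, at 27.5 ± 8.31, Elf3, an epithelial transcription factor, at 22.4 ± 9.22 and Rbp7, a retinol binding protein, at 16.2 ± 3.52 (SD, n = 3). This order is a description, because low ID8 counts and high KMF levels were what placed genes in it.

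The level of Ndufa4l2 varied among the KMF libraries, which were separate cultures at different passages. The 95% Poisson intervals, which give the counting precision of each level alone, were 93.0 to 101 FPKM in replicate 1, 164 to 175 in replicate 2 and 110 to 117 in replicate 3. The highest library was 1.74-fold above the lowest. The coefficient of variation was 29.9%, against a median of 6.98% for the 3145 listed genes with a mean KMF count of at least 1000. Of those genes, 98.3% had a lower coefficient of variation and 54 had a higher one. The order by level, replicate 2 above 3 above 1, did not follow passage, since replicate 2 was the middle passage.

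Ndufa4 was abundant in both lines and was lower in KMF. ID8 replicates 1, 2 and 3 stood at 624, 652 and 514 FPKM of Ndufa4, and KMF replicates at 405, 417 and 486. The highest KMF library stood just below the lowest ID8 library, so the lines did not overlap but came close. Over all listed genes, 50.2% had every KMF library below every ID8 library. The means were 597 ± 73.2 in ID8 and 436 ± 43.4 in KMF (SD, n = 3). The log2 fold change of KMF over ID8 was -0.42 ± 0.11 (SE), with an adjusted p of 0.00914 by the edgeR quasi-likelihood test with Benjamini-Hochberg adjustment. Under a stricter adjustment over all 55450 genes of a reference names table, the edgeR adjusted p was 0.0728 and Ndufa4 did not pass.

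As a share of Ndufa4 by FPKM, Ndufa4l2 reached 23.9%, 40.5% and 23.3% in KMF replicates 1, 2 and 3, with a mean of 29.3% ± 9.76 (SD, n = 3). In ID8 replicates it was 0%, 0% and 0.0079%. KMF replicate 2 was apart from the other two because Ndufa4l2 was highest there while Ndufa4 was not. The summed FPKM of both genes was 597 ± 73.2 in ID8 and 562 ± 52.4 in KMF (SD, n = 3), a difference smaller than the spread between libraries. In ID8, between 6488 and 9055 fragments of Ndufa4 were accompanied by at most 1 fragment of Ndufa4l2. How reads were split between the copies was not tested.

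**Figure D2:**
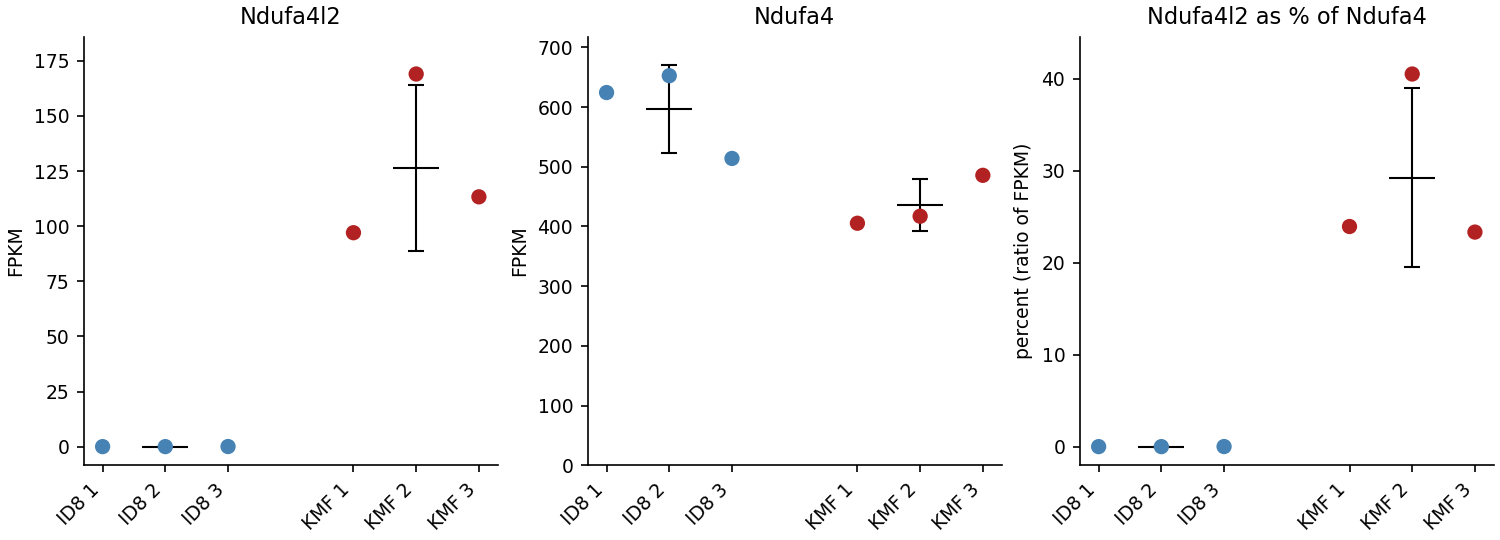
FPKM of Ndufa4l2 (left) and Ndufa4 (middle) in each library, and Ndufa4l2 as a percentage of Ndufa4 (right), with ID8 libraries in blue and KMF libraries in red. Horizontal bars give the mean of each line and whiskers the SD over 3 libraries. Ndufa4l2 is at or near 0 in ID8 and between 97.0 and 169 in KMF, while Ndufa4 is present in all 6 libraries.

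The other genes of the oxygen-sensing pathway were taken from 4 lists of 64 genes, of which 25 were in the table. Hif1a, which encodes the HIF-1 alpha subunit, and Pdk1, a mitochondrial HIF target, are among those not analysed here. A gene was termed called at an adjusted p under 0.05. Of 6967 genes fitted by edgeR, 99.8% were called, 49.7% higher and 50.2% lower in KMF, which is what a table selected on the same 6 libraries gives. Of the 24 fitted hypoxia genes, 17 were called higher and 6 lower. Under the stricter adjustment over the reference names table, 72.0% of fitted genes were called, 35.0% higher and 37.0% lower, and the hypoxia genes gave 9 higher and 4 lower. The median log2 fold change of the hypoxia genes was 0.64, against -0.23 for all fitted genes. Of the 6967 fitted genes, 3470 were higher in KMF, and a table of changed genes lacks unchanged ones. The -0.23 is therefore no measure of a general shift.

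The 7 listed HIF regulators moved in both directions, with 5 called higher and 2 lower in KMF, and 3 higher and 2 lower under the stricter adjustment. These stand beside 49.7% higher and 50.2% lower among all fitted genes, and 35.0% and 37.0% under the stricter adjustment. Egln3, a prolyl hydroxylase that marks HIF alpha subunits and is itself a HIF target, stood at 36.5, 63.5 and 73.5 FPKM in ID8 replicates 1, 2 and 3 and at 102, 234 and 156 in KMF. Its KMF libraries followed the same order as Ndufa4l2, and the log2 fold change was 1.54 ± 0.34 (SE) with an edgeR adjusted p of 0.00336. Epas1, which encodes the HIF-2 alpha subunit, stood at 10.8, 9.04 and 7.75 FPKM in ID8 and at 19.2, 18.7 and 20.4 in KMF. All KMF libraries of Epas1 were alike and above ID8. The difference was 1.12 ± 0.12 (SE) on the log2 scale, with an edgeR adjusted p of 0.000121.

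Arnt2, a partner subunit of HIF, was low in both lines averaging 0.589 ± 0.258 FPKM over ID8 and 0.126 ± 0.0278 over KMF (SD, n = 3), and it fell by 2.19 on the log2 scale. Hif1an, the asparagine hydroxylase that blocks HIF activity, fell by 0.40 on the log2 scale. Egln2, another prolyl hydroxylase, rose by 0.33. Vhl, which recognises hydroxylated HIF, and Cul2, the scaffold of the VHL ligase, had log2 fold changes of 0.28 and 0.21. Both lost their call on leaving out a library, with edgeR adjusted p of 0.0615 without ID8 replicate 1 and 0.0618 without KMF replicate 3 for Vhl, and 0.0751 without ID8 replicate 2 and 0.0522 without KMF replicate 2 for Cul2.

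Of the mitochondrial hypoxia targets, 1 of 9 besides Ndufa4l2 was in the table. This was Bnip3, a receptor for the removal of mitochondria by autophagy. It stood at 10.4, 20.6 and 27.2 FPKM in ID8 replicates 1, 2 and 3 and at 33.2, 96.2 and 81.1 in KMF. The lowest KMF library was close to the highest ID8 library, whereas the lines were far apart for Ndufa4l2. The log2 fold change of Bnip3 was 1.90 ± 0.44 (SE), with an edgeR adjusted p of 0.00448.

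Of 19 glycolytic targets, 7 were in the table, and Aldoa, Pgk1 and Gapdh are among those not analysed here. Of the 7, 6 were called higher in KMF and 1 lower, and 4 and 1 under the stricter adjustment. Of all fitted genes, 49.7% were called higher and 50.2% lower, and 35.0% and 37.0% under the stricter adjustment. Pfkp, a phosphofructokinase, stood at 5.40, 9.26 and 11.4 FPKM in ID8 and at 22.3, 42.4 and 41.9 in KMF, a rise of 2.08 ± 0.32 (SE) on the log2 scale. Hk1, a hexokinase, stood at 37.4, 39.5 and 44.1 in ID8 and at 66.2, 85.1 and 83.9 in KMF. Ldha, which makes lactate, was the most abundant of them, averaging 361 ± 108 FPKM over ID8 and 665 ± 91.0 over KMF (SD, n = 3). In all 3 genes every KMF library was above every ID8 library, as in 46.3% of all listed genes. KMF replicate 1 was the lowest KMF library in each, as in 39.9% of all listed genes. Slc16a3, a lactate exporter, stood at 1.43, 5.20 and 8.31 in ID8 and at 11.2, 22.4 and 14.2 in KMF, and its edgeR adjusted p of 0.0160 became 0.0529 without KMF replicate 2. The 1 gene called lower was Hk2, another hexokinase, at 23.8, 25.7 and 24.6 FPKM in ID8 and 14.1, 15.6 and 16.8 in KMF. Hk2 fell by 0.63 on the log2 scale, with an edgeR adjusted p of 0.00215 under the stricter adjustment.

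Of the 10 other listed hypoxia targets, 9 were fitted, with 5 called higher and 3 lower in KMF, and 1 and 1 under the stricter adjustment. Among all fitted genes, 49.7% were called higher and 50.2% lower, so the count called higher was near that share. Under the stricter adjustment the shares were 35.0% and 37.0%, and the counts were below them. The count called higher became 3 without ID8 replicate 1 and 3 without KMF replicate 2. P4ha2, a collagen prolyl hydroxylase, rose by 1.81 on the log2 scale and Ndrg1, a stress response gene, by 1.79. Under the stricter adjustment P4ha2 passed, with an edgeR adjusted p of 0.0256, and Ndrg1 did not, at 0.0720. Vegfa, the vascular growth factor, stood at 13.6, 23.3 and 40.6 FPKM in ID8 and at 30.3, 109 and 82.9 in KMF. KMF replicate 1 was below ID8 replicate 3, so the lines overlapped for Vegfa. Its edgeR adjusted p of 0.0177 became 0.0514 without ID8 replicate 1 and 0.0606 without KMF replicate 2. Angptl4, a lipase inhibitor, fell by 1.41 on the log2 scale, and Car12, a carbonic anhydrase, fell by 0.33. Stc2, a secreted glycoprotein, fell by 1.38. Of these 3, only Angptl4 passed the stricter adjustment. Adm, the vasodilator peptide adrenomedullin, was removed by the filter on low counts, at 0.171, 1.61 and 1.54 FPKM in ID8 and 0, 0.0623 and 0.0650 in KMF, with every KMF library below every ID8 library.

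Most hypoxia genes were present in both lines, unlike Ndufa4l2. Of the 25, 15 had every KMF library above every ID8 library, 7 had every KMF library below and 3 overlapped. Over all listed genes, 46.3% had every KMF library above and 50.2% every KMF library below. In the 15 genes above, the lowest KMF library exceeded the highest ID8 library by a median of 1.19-fold, with a range from 1.02-fold for Vhl to 1.97-fold for Pfkp. For Ndufa4l2, the corresponding levels were 97.0 FPKM in KMF replicate 1 and 0.0406 FPKM, a single fragment, in ID8 replicate 3.

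The order of the KMF libraries seen for Ndufa4l2 was common among hypoxia genes. KMF replicate 2 stood above 3 and 3 above 1 in 14 of the 25 (56.0%), and in 18.0% of all listed genes. KMF replicate 1 was the lowest KMF library in 20 of the 25 (80.0%), against 39.9% of all listed genes. All 7 listed glycolytic targets were lowest in KMF replicate 1. Within ID8, replicate 1 was the lowest library for 18 of the 25 (72.0%), against 25.3% of all listed genes. The ratio of the highest to the lowest KMF library was larger than that of Ndufa4l2 in 7 hypoxia genes, and it reached 3.58 for Vegfa. Adm, at 0 FPKM in KMF replicate 1, had no such ratio and was left out. These shares describe the same 3 libraries of each line, so the genes are not independent of each other.

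**Figure D3:**
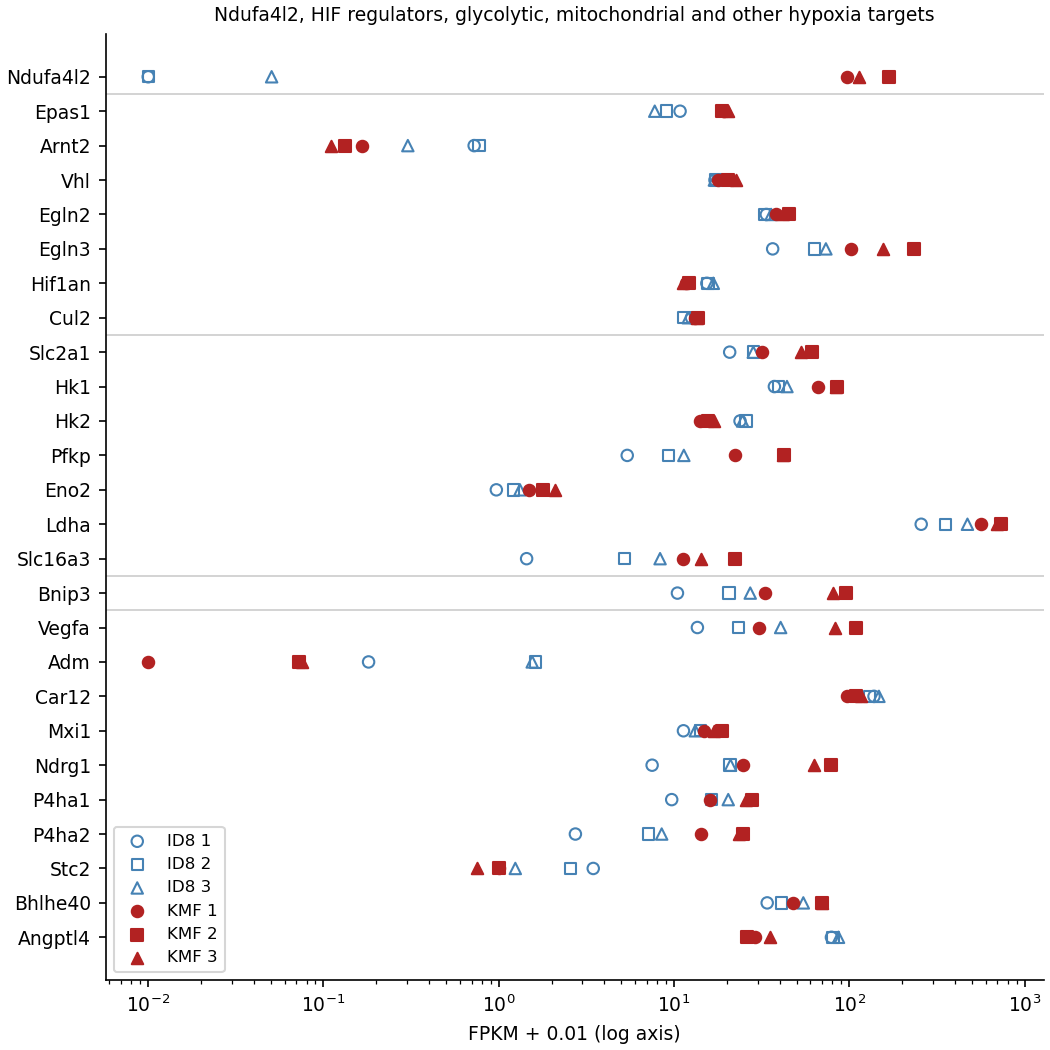
FPKM of Ndufa4l2 and of the 25 listed hypoxia genes in each library, with 0.01 added and a log axis. Open blue symbols are ID8 libraries, filled red symbols are KMF libraries, shapes give the replicate and grey lines separate the lists. Ndufa4l2 spans the axis between the lines, while most hypoxia genes have ID8 and KMF libraries next to each other.

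Genes of complex IV, to which Ndufa4 belongs, were examined next. Of 20 complex IV genes, 9 were in the table and 8 were fitted, with 7 called lower and 1 higher, and 3 and 1 under the stricter adjustment. Of all fitted genes, 50.2% were called lower, and 37.0% under the stricter adjustment, so the stricter count was near the share of all genes. The count called lower became 4 without ID8 replicate 1, under the adjustment over fitted genes. The share of all genes called lower is not given for that fit. Cox6b2, a testis-type subunit, fell by 5.92 on the log2 scale, from 5.82 ± 2.33 to 0.0901 ± 0.0488 FPKM (SD, n = 3). Cox8a, a nuclear-encoded accessory subunit, fell by 0.40, from 1124 ± 37.0 to 831 ± 37.4 FPKM. The mitochondrially encoded mt-Co3 fell by 0.48. For mt-Co1, which holds the catalytic centre, the log2 fold change was -0.36 with an edgeR adjusted p of 0.0294, which became 0.109 without ID8 replicate 1, 0.0776 without KMF replicate 1 and 0.0919 without KMF replicate 3.

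Of 44 complex I genes, 19 were listed and fitted, with 15 called lower and 4 higher, and 10 and 2 under the stricter adjustment. These stand beside 50.2% lower and 49.7% higher among all fitted genes, and 37.0% and 35.0% under the stricter adjustment. Ndufa7 fell by 0.69 on the log2 scale, from 251 ± 17.4 to 151 ± 6.52 FPKM, and Ndufb4 fell by 0.56, from 44.3 ± 5.55 to 29.3 ± 0.699 (SD, n = 3). Ndufb6 rose by 1.00, from 44.0 ± 6.02 to 85.4 ± 2.54. All 3 are accessory subunits. The mitochondrially encoded mt-Nd4 fell by 0.45. For mt-Nd2 the edgeR adjusted p of 0.0350 became 0.116 without ID8 replicate 1, 0.0510 without ID8 replicate 3, 0.104 without KMF replicate 1 and 0.0521 without KMF replicate 2. The median log2 fold change was -0.39 for complex IV and -0.33 for complex I, against -0.23 for all fitted genes. As stated above, the -0.23 is no measure of a general shift.

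**Figure D4:**
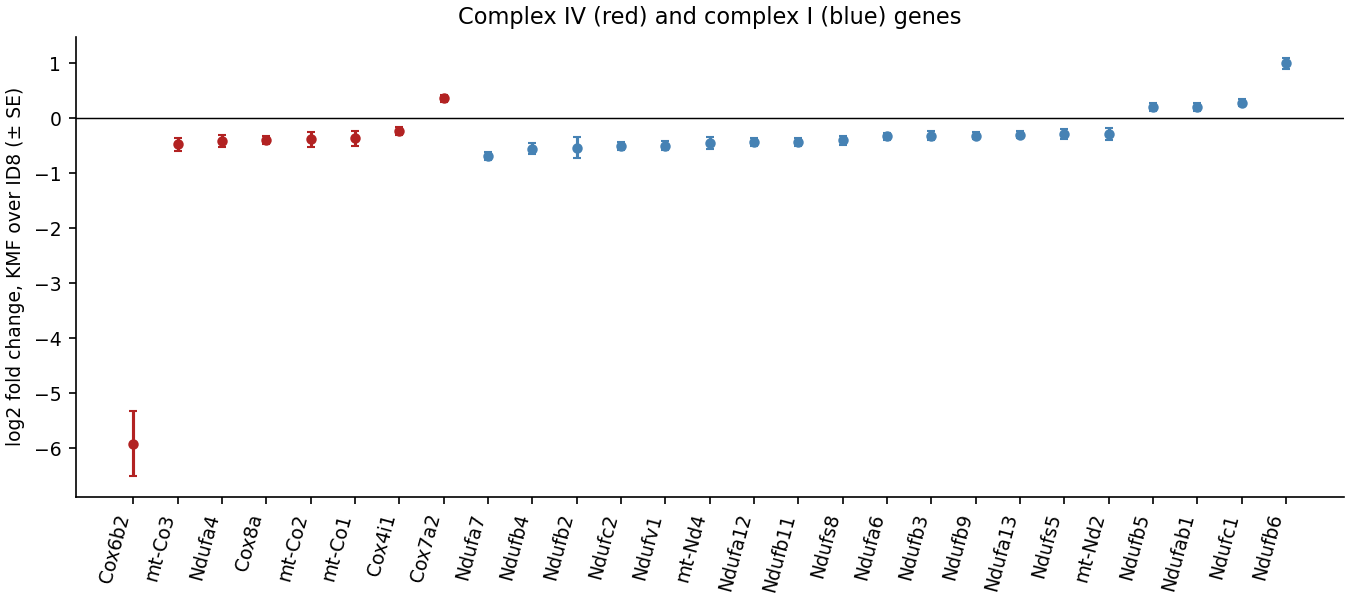
Log2 fold change of KMF over ID8 for the fitted genes of complex IV (red) and complex I (blue), with bars of 1 SE from the edgeR fit. Most points lie below 0, Cox6b2 lies lowest at -5.92 and Ndufb6 highest at 1.00.

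The genes nearest to Ndufa4l2 on chromosome 10 were compared next. Shmt2, which encodes the mitochondrial serine hydroxymethyltransferase, lies on the opposite strand, and its listed span (chr10:127517123-127522444) overlaps that of Ndufa4l2 by 30 bases where both genes end. The library kit does not mark strand, so reads from the overlap cannot be assigned by strand. In ID8, Shmt2 had between 1521 and 1905 fragments while Ndufa4l2 had at most 1. Shmt2 stood at 28.0, 28.7 and 25.7 FPKM in ID8 replicates 1, 2 and 3 and at 60.8, 66.2 and 71.2 in KMF. Every KMF library was above every ID8 library, as in 46.3% of all listed genes. The log2 fold change was 1.30 ± 0.09 (SE) with an edgeR adjusted p of 1.4e-05.

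Nxph4, which encodes a neurexophilin, a secreted glycoprotein, lies 8321 bases beyond the listed end of Ndufa4l2 (chr10:127525473-127534559, minus strand). It had 3, 6 and 2 fragments in ID8 replicates 1, 2 and 3 and 296, 784 and 920 in KMF. In FPKM, this was 0.0607, 0.148 and 0.0465 in ID8 and 7.49, 20.3 and 16.5 in KMF, so that the KMF libraries had the same order as for Ndufa4l2. Its log2 fold change was 7.46 ± 0.56 (SE), with an edgeR adjusted p of 2.24e-05. Beyond it, Stat6, a transcription factor of interleukin signalling, rose by 0.36 on the log2 scale.

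On the other side, the nearest listed genes were 203153 to 319211 bases away. Mars, a methionyl-tRNA synthetase, rose by 0.36, Mbd6, a protein with a methyl-CpG binding domain, rose by 0.54, and Dtx3, a ubiquitin ligase, fell by 0.58 on the log2 scale. Stac3 and R3hdm2, which GENCODE M21 places between these and Ndufa4l2, are not in the table and were not analysed here.

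**Figure D5:**
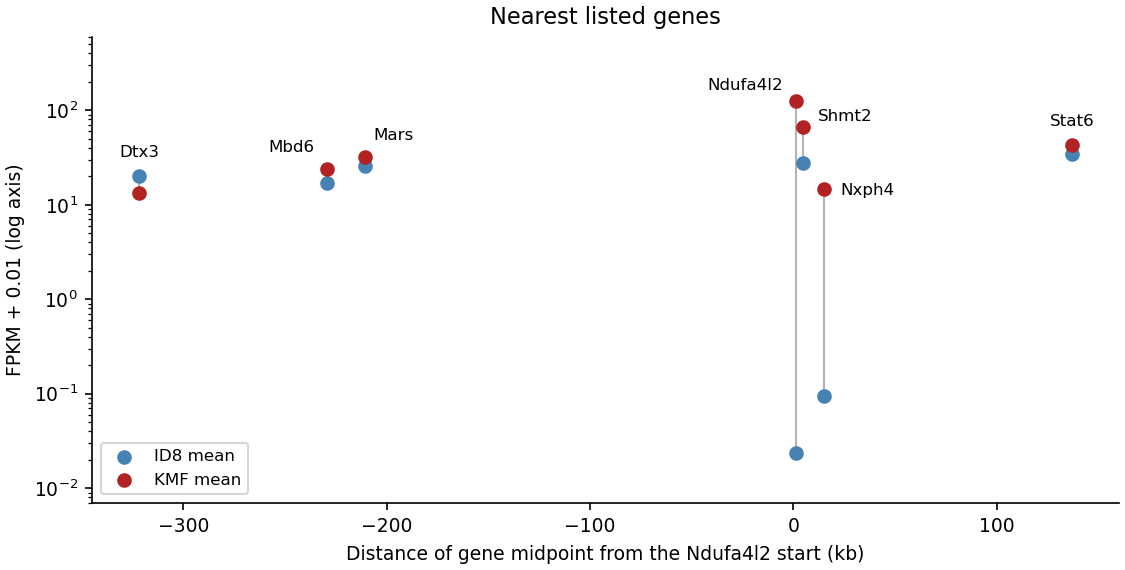
Mean FPKM in ID8 (blue) and KMF (red) of Ndufa4l2 and the 3 nearest listed genes on each side, with 0.01 added and a log axis, against the distance of the gene midpoint from the Ndufa4l2 start in kilobases. Ndufa4l2 and Nxph4 are near 0 in ID8 and at 126 and 14.8 FPKM in KMF, while the other genes are present in both lines.

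The listed genes most like Ndufa4l2 were found by the Euclidean distance between profiles of log2(FPKM + 1) over the 6 libraries. The 10 nearest were Cxcl1, Ly6a, Gkn2, Epb4.1l4b, Fgfr3, Cela1, Lrrc26, Cyp2j6, Tek and AI427809, with distances from 1.85 for Cxcl1 to 3.28 for AI427809. Cxcl1, a neutrophil chemokine, stood at 293, 142 and 117 FPKM in KMF replicates 1, 2 and 3 and at 0.462 ± 0.178 in ID8 (SD, n = 3). Gkn2, a gastrokine of the stomach lining, stood at 106, 282 and 163 in KMF and at 1.07 ± 0.999 in ID8. Fgfr3, a fibroblast growth factor receptor, stood at 52.4, 49.1 and 54.9 in KMF and at 0.201 ± 0.0511 in ID8. Unlike Ndufa4l2, Fgfr3 was nearly even over the KMF libraries.

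Of the 10, Gkn2 and Lrrc26, a potassium channel subunit, followed the same KMF order as Ndufa4l2. The list depends on the measure, since a pseudocount of 0.1 shared 6 of the 10 genes and Pearson correlation shared 0. Of the other members, Ly6a, a surface antigen, had a KMF mean of 121 FPKM, close to that of Ndufa4l2, and an ID8 mean of 1.27 FPKM.

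Markers of cell types that could carry Ndufa4l2 were examined last. Of 12 pericyte and smooth muscle markers, 5 were in the table, and their summed level was 2.49 to 4.06 FPKM in ID8 and 5.22 to 6.56 in KMF. Rgs5, the defining pericyte marker, averaged 0.693 ± 0.666 FPKM over ID8 and 0.0684 ± 0.0638 over KMF (SD, n = 3), with overlapping libraries. Mcam, an adhesion molecule, rose to 2.94 ± 0.292 FPKM in KMF and Notch3 to 2.27 ± 0.420. Cspg4 reached 0.210 ± 0.130 FPKM in KMF. Des, an intermediate filament of muscle, fell by 1.71 on the log2 scale to between 0.257 and 0.676 FPKM in KMF, with an edgeR adjusted p of 0.0268 under the stricter adjustment. Of the 5, 3 were called higher and 2 lower, near the 49.7% and 50.2% of all fitted genes called higher and lower. Under the stricter adjustment 2 were called higher and 1 lower, beside 35.0% and 37.0% of all fitted genes. The other 7 markers, Pdgfrb and Acta2 among them, were not analysed here.

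Of 11 endothelial markers, 4 were in the table, and their summed level of 48.0 to 71.6 FPKM in KMF, against 30.4 to 52.0 in ID8, came almost entirely from Tek and Esam, an adhesion molecule. Tek, at most 2 fragments per library in ID8, reached 47.6, 32.3 and 27.7 FPKM in KMF replicates 1, 2 and 3, and Esam fell by 0.85 on the log2 scale. Kdr, a defining endothelial receptor, had 2, 10 and 7 fragments in ID8 replicates 1, 2 and 3 and 0 in all KMF libraries. Tie1, an endothelial receptor related to Tek, had 3, 0 and 2 fragments in ID8 and 5, 17 and 15 in KMF, a mean of 0.110 FPKM. Both were removed by the filter on low counts. In the edgeR fit with the filter, 2 endothelial markers were fitted. Of these, 1 was called higher and 1 lower, and 1 and 0 under the stricter adjustment. Without that filter, or with DESeq2, 2 endothelial markers were called higher and 2 lower. Of all genes fitted with the filter, 49.7% were called higher and 50.2% lower, and 35.0% and 37.0% under the stricter adjustment. Of 11 leukocyte markers, only Cd74, the invariant chain, was in the table, at 0.857 to 1.59 FPKM in ID8 and 0.215 to 0.391 in KMF. Of 7 fibroblast markers, 4 were listed and all 4 were called lower in KMF, also under the stricter adjustment. This stands beside 50.2% of all fitted genes called lower, and 37.0% under the stricter adjustment. The summed level of the 4 markers was 77.3 to 107 FPKM in ID8 and 13.5 to 25.9 in KMF. Among them Dcn, a matrix proteoglycan, fell by 2.18 on the log2 scale. The fibrillar collagen gene Col1a1 fell by 2.67 and Col3a1 fell by 3.42.

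Of 14 ovarian surface epithelial markers, 10 were in the table, and Krt8, Krt18, Krt19 and Pax8 were not analysed here. A table of genes that differed between the lines lacks markers that were alike in both, so it cannot check the labelled epithelial origin. The summed level of the 10 markers was 168 to 250 FPKM in ID8 and 169 to 220 in KMF. Wt1, a transcription factor of this epithelium, averaged 108 ± 12.1 FPKM over ID8 and 77.3 ± 13.2 over KMF (SD, n = 3), and Msln, mesothelin, rose from 34.3 ± 4.70 to 91.6 ± 11.5. Cdh1, which encodes E-cadherin, fell by 3.55, Upk3b, a uroplakin, fell by 3.88 and Lrrn4, a mesothelial marker, fell by 4.08 on the log2 scale. Of the 9 fitted, 7 were called lower and 1 higher, and 6 and 1 under the stricter adjustment, beside 50.2% and 37.0% of all fitted genes called lower. The edgeR adjusted p of Wt1, 0.0154, became 0.0525 without ID8 replicate 1 and 0.0506 without KMF replicate 2. The part of any of these cell types in the level of Ndufa4l2 was not tested.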

How the data were processed

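Poly-A RNA libraries of 3 ID8 and 3 KMF tumorsphere samples were sequenced as paired-end reads by a service provider. The authors' methods name TopHat2 for mapping, whereas the submitters' processing notes name STAR 2.5, CASAVA 1.8, DESeq2 and the build mm10. The annotation release and strand use in counting are not given in the sources used here. The deposited table holds a raw count per gene and library and the FPKM that the authors computed from count, gene length and library total. It also holds a signal per line (the authors' mean normalized count), and the authors' log2 fold change and p-value with its adjustment, which were not used. The table lists only genes that passed the authors' test, and calls within it cannot show how common change was over the genome.

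Library totals, recovered from count, FPKM and length, ranged from 23108407 to 33212313 fragments, of which listed genes held 52.8% to 55.9%. The fit used edgeR 4.0.16 under R 4.3.3 (TMM, filterByExpr, glmQLFit, glmQLFTest, two-sided), which left 6967 genes. Every adjusted p is Benjamini-Hochberg over these genes unless the reference names table is stated. On simulated data of 7320 genes with 200 changed by 1 log2 unit, the fit recovered 94.5% and made 10 false calls. The simulation used a fixed dispersion and left most genes unchanged, whereas 99.8% of fitted genes were called in the real table. Its rates therefore cannot be carried over to this table. Within each line, libraries differed by more than sampling noise (lowest chi-square per degree of freedom 19.3). Alternatives used DESeq2 1.42.0 and limma 3.58.1, and levels, sequences and figures used Python 3.11.15. Libraries had no molecular identifiers, so intervals cover counting error only.

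The gene and the lists were chosen with earlier results of these data known. Genes named were Ndufa4l2, Ndufa4, all listed HIF regulators and mitochondrial targets, up to 3 called genes of largest change and the 2 most abundant per other list, the 10 most alike, 2 rank neighbours and 3 listed genes on each side. Ly6c1, Elf3, Rbp7, Kdr, Tie1, Des, Adm, Stc2 and Hk2 were named after their values were seen. Of the identifiers, 7286 overlapped their GENCODE M21 position, and 14 symbols turned into dates were restored.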

Additional observations from a re-analysis of the deposited data

How the results depend on the processing

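Mean FPKM of Ndufa4l2 in KMF ranged from 105 to 141 on leaving out each KMF library in turn, and its rank from 265 to 369. By mean CPM the rank was 1161. The ratio of KMF to ID8 ranged from 5959 to 10365 on leaving out single libraries, apart from ID8 replicate 3, without which ID8 held no fragment and the lower bound was 2139. Of the 10 most alike genes, 6 were shared at a pseudocount of 0.1 and 0 with Pearson correlation.

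The count of called genes was 6956 and ranged from 6434 to 6789 on leaving out each library. Upper quartile scaling moved the median log2 fold change of fitted genes by -0.11. HIF regulators called higher fell from 5 to 3 under upper quartile scaling, under limma at either pseudocount and under adjustment over the reference names table. That adjustment also left 1 other hypoxia target higher and 1 lower, 3 complex IV genes lower, 2 complex I genes higher, 1 pericyte and 0 endothelial markers lower. Upper quartile scaling left 2 complex I genes higher. With DESeq2 or no filter on low counts, more low genes entered, and 2 complex IV genes were higher and 2 endothelial markers were higher and 2 lower. At least 10 counts in every library left 1 pericyte marker lower, 0 endothelial markers higher and 0 leukocyte markers lower. DESeq2, limma and the replicate block gave 2 ovarian surface epithelial markers higher. On leaving out each library, counts ranged from 3 to 6 for other hypoxia targets higher, from 1 to 2 for complex IV, endothelial and ovarian surface epithelial markers higher, and from 4 to 7 for complex IV lower.

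For the 61 other genes named by rule, 861 values under 15 alternatives kept direction and call, 43 kept direction and lost the call, and none reversed. All listed genes had passed the authors' test on the same libraries, and many were named for a large change. Kept calls therefore largely follow from that choice and are no independent support. The genes named after their values were seen are not among the 61, and no such values are given for them. A further 11 values, for 11 genes, could not be fitted because the genes had under 10 counts in some library. Of the 61 genes, 37 were fitted under every alternative and kept their call in each. Same-numbered libraries deviated together with r of 0.07, -0.09 and 0.11 across genes, and not every library correlated best with its own number, so the numbers were not taken to pair the samples. With the replicate block 6810 genes were called, against 6956 without it, and of the 61 genes Cul2 and mt-Nd2 lost their call.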
